A study of Saccharomyces cerevisiae with 20 samples.

Results

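Transcript levels were compared between aerobic cultures of Saccharomyces cerevisiae in late stationary phase (SP) and the same cultures in early SP. The comparison took every array labelled as aerobic late SP and every array labelled as aerobic early SP, which made 4 of the 20 arrays of the series, 2 in each group. The strain was the haploid laboratory strain CEN.PK113-7D (MATa MAL2-8C SUC2), grown in bioreactors on synthetic medium with 20 g/L glucose at 30 °C and pH 5.0 under a stream of air. Independent duplicate cultures were followed over time, so that each culture gave 1 late SP and 1 early SP array. The other 16 arrays covered 4 earlier aerobic time points (exponential and late exponential growth, diauxic shift and post-diauxic phase) and 4 anaerobic time points, from cultures under nitrogen whose medium also held ergosterol and Tween 80 in ethanol. The values were signals of Affymetrix YG-S98 arrays, which were scaled so that all arrays had the same average, so that a signal is a relative and not an absolute transcript level. In such bulk samples a lower share of cells with a transcript and less of it in each cell cannot be told apart.

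Yeast that grows on glucose with oxygen first ferments the sugar to ethanol and then, after the diauxic shift, respires that ethanol during a slow post-diauxic phase. SP begins when the ethanol and organic acids are used up as well, and cells then live on stored carbohydrates and lipids. Entry into this state is known for an arrest of growth, a lower expression of the translation machinery and the induction of stress-response genes, many of which are driven by the transcription factors Msn2 and Msn4 or by the heat-shock factor Hsf1.

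Late SP differed from early SP at 1262 genes, and falls outnumbered rises. Of 5266 genes (1 probe set each), 355 were higher in late SP (6.74%) and 907 were lower (17.2%), at an adjusted p below 0.05 (limma, Benjamini-Hochberg adjustment over 6067 probe sets) and a change of at least 2-fold. The median log2 fold change over all genes was -0.26. All 1262 called genes moved the same way in both cultures, which their call on these same arrays makes likely. The late SP signals of all 355 higher genes lay above both early SP signals. Those of 905 of the 907 lower genes lay below them, the exceptions being FAR1 and ORC2, which were picked out after their values were seen. The share of all genes that separate in this way was not counted. As the call itself favours such a separation, it is no separate support, also for the genes named below. Rises were larger than falls at the extremes, as 18 genes rose and 2 fell by over 8-fold. After scaling to 6 housekeeping genes in place of the average signal, the median log2 fold change over all probe sets was -0.09 in place of -0.22 and 44.6% of the called probe sets were higher in place of 32.8%, so that shifts of a list near the median of all genes depend on the scale.

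**Figure D1:**
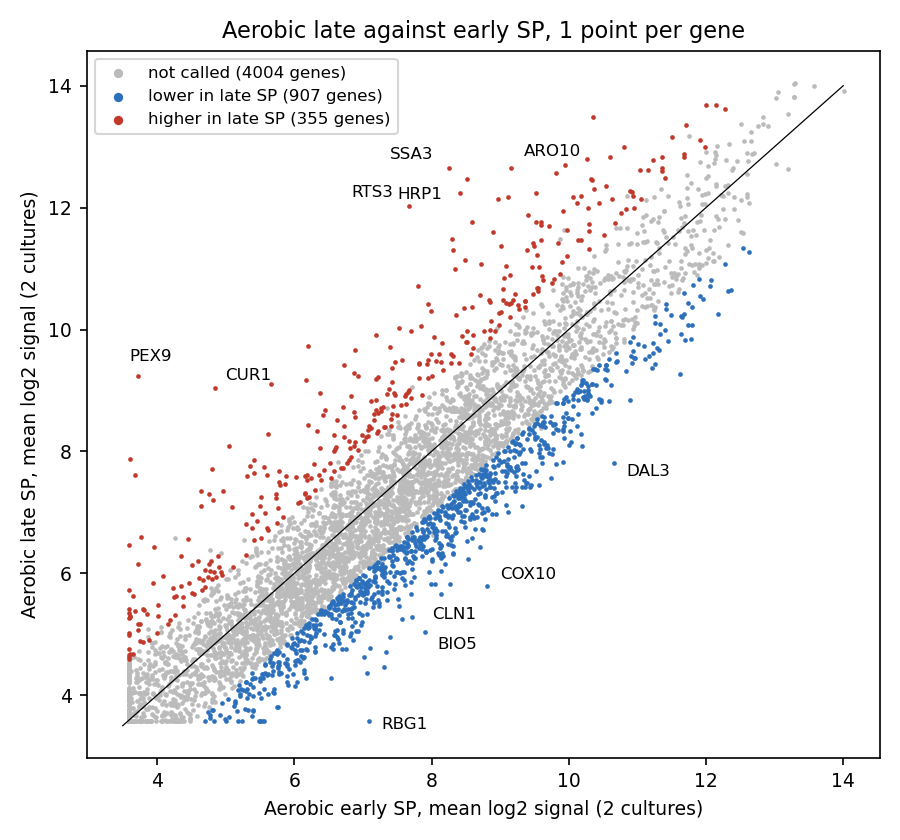
Mean log2 signal in aerobic late SP (vertical axis) against aerobic early SP (horizontal axis), 2 cultures each, 1 point per gene, with signals below 12 set to 12. The 355 red genes were higher and the 907 blue genes lower in late SP, and the black line marks equal signals.

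The 2 late SP arrays correlated with r = 0.979 over the log2 signals of all tested probe sets and the 2 early SP arrays with r = 0.980, whereas late and early SP arrays correlated with r between 0.897 and 0.925. As a check of the labels, 7 tested markers of MATa cells, of which 1 was below the floor in late SP culture 1, had a summed signal of 1543 and 3466 in late SP and 4912 and 6748 in early SP, whereas 3 tested markers of MATalpha cells summed to 267.3 and 366.6 in late SP and 128.0 and 172.5 in early SP. The 19 hypoxic and anaerobic markers summed to 7652 and 11457 in late SP and 4885 and 6751 in early SP, against 40862 to 47187 on the 4 anaerobic SP arrays. RNA integrity was read from control transcripts, as the signal at the 3' end over that at the 5' end, and was not the same in both groups. For ACT1 this ratio was 2.68 and 2.10 in late SP against 1.77 and 1.87 in early SP, and for SPT15 it was 5.20 and 6.81 in late SP against 3.48 and 3.67 in early SP. For SRB4 it went the other way, with 2.85 and 3.70 in late SP against 4.29 and 6.20 in early SP. The median log2 fold change was between -0.33 and -0.19 in each of 5 classes of genes by coding length. The part of RNA integrity in the results was not tested.

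The 15 largest rises included genes for peroxisomal import, chaperones and RNA processing. PEX9, which encodes an import receptor for peroxisomal matrix enzymes, had signals of 630.3 and 580.8 in late SP, against 14.5 and 9.1 in early SP. None of the 16 arrays outside this comparison had a PEX9 signal above 8.4, so that the gene passed the low-signal filter only through its late SP arrays. Its log2 fold change of 5.52 was set by the floor of 12, and was 5.72 with a floor of 1 and 4.33 with a floor of 30. SSA3, which encodes an Hsp70 of the stress response, had signals of 6252.6 and 6639.8 in late SP, against 452.3 and 205.0 in early SP (log2 fold change 4.40 ± 0.42 SE, limma adjusted p = 2.52e-06). PEX9 was thus near or below the floor of 12 until late SP, whereas SSA3 was already well above it in early SP.

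Further genes among the 15 largest rises encode proteins that act on RNA. HRP1, a factor that binds nuclear RNA during cleavage and polyadenylation, had signals of 5212.5 and 4519.5 in late SP, against 369.2 and 313.2 in early SP (log2 fold change 3.84 ± 0.22 SE, limma adjusted p = 2.34e-08). NRD1, which terminates the transcription of short non-coding RNAs, had 3466.4 and 2383.8 in late SP, against 315.4 and 312.7 in early SP (log2 fold change 3.19). In each of the genes both late SP signals lay above both early SP signals, as in all genes called higher. BUR6, a subunit of the transcription regulator NC2, rose by a log2 fold change of 3.17, and ZPR1, a zinc-finger protein that helps the elongation factor eEF1A to fold, by 3.45.

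ARO10, a decarboxylase of aromatic amino acid breakdown, had signals of 6467.0 and 6366.8 in late SP, against 600.8 and 547.4 in early SP (log2 fold change 3.48 ± 0.20 SE, limma adjusted p = 2.24e-08). RTS3, a putative part of protein phosphatase 2A, had a log2 fold change of 4.36 and ROQ1, which redirects the ubiquitin ligase Ubr1, of 3.95. NKP1, a non-essential kinetochore protein, rose by 4.27 and REC104, a protein of meiotic recombination, by 3.93, both with early SP signals near or below the floor and, like PEX9, past the low-signal filter only through late SP (2.96 and 2.70 with a floor of 30). The uncharacterized genes YOR019W (3.54) and YNL195C (3.14) were also among the 15, as was YOR302W (3.17), the short reading frame in the leader of CPA1. CPA1 itself, which encodes a subunit of carbamoyl phosphate synthetase for arginine, had a log2 fold change of 2.76, and as the reading frame lies on the same transcript the pair is not independent.

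Genes for heat-shock proteins and chaperones had the highest share of rises of the lists examined, apart from the 8 stationary-phase genes. Of 33 tested genes for heat-shock proteins and chaperones, 22 rose and 1 fell, with a median log2 fold change of 1.58, against 6.74% of all genes that rose and a median of -0.26. Leaving out any 1 of the 4 arrays gave 19 to 21 rises. The difference between subgroups of the list was not tested.

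SSA3 had the largest change of the list, followed by CUR1, SIS1 and HSP42. CUR1, which sorts misfolded proteins, had signals of 581.4 and 477.6 in late SP, against 30.9 and 26.7 in early SP (log2 fold change 4.20 ± 0.27 SE, limma adjusted p = 5.01e-08). SIS1, an essential J-protein that directs Hsp70 to its clients, had 5321.4 and 3991.8 in late SP, against 511.2 and 601.0 in early SP (log2 fold change 3.06 ± 0.21 SE, limma adjusted p = 1.07e-07). HSP42, a small heat-shock protein that gathers aggregates, had 6595.0 and 5628.8 in late SP, against 1050.2 and 765.9 in early SP (log2 fold change 2.76 ± 0.44 SE, limma adjusted p = 0.000155). In each of these genes the late SP signals were clear of the early SP signals in both cultures, as in all genes called higher. BTN2, the paralog of CUR1, rose by 2.71, the J-proteins YDJ1 and APJ1 by 2.66 and 2.59 and the Hsp90 co-chaperones STI1, HCH1, AHA1 and CPR6 by 2.54, 2.21, 2.11 and 2.02, whereas the Hsp90 co-chaperones CDC37 (0.38) and SBA1 (0.20) were not called. Members beyond the 4 largest changes of this list were named with their values known.

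Genes for the SSA family of cytosolic Hsp70 and for Hsp90 had log2 fold changes between 0.74 for SSA1 and 4.40 for SSA3. HSP82, the inducible Hsp90, had signals of 6231.2 and 5140.7 in late SP, against 1519.6 and 1079.9 in early SP (log2 fold change 2.14), whereas its constitutive paralog HSC82 had 8204.7 and 7195.4 in late SP and 4368.8 and 4633.8 in early SP (0.77), under the 2-fold threshold. Among the Hsp70 genes the log2 fold change was 4.40 for SSA3, 1.91 for SSA2, 1.29 for SSA4 and 0.74 for SSA1, the last under the threshold. These paralogs have long stretches of near-identical sequence, so that signals can be shared between them. HSP104, the disaggregase that takes proteins out of aggregates, had 2015.8 and 1801.8 in late SP, against 595.5 and 533.0 in early SP (log2 fold change 1.76 ± 0.37 SE, limma adjusted p = 0.00124). HSP26, a small heat-shock protein, had 6538.5 and 6012.5 in late SP, against 1992.3 and 2203.4 in early SP (log2 fold change 1.58, adjusted p = 0.014), and its call was lost without either late SP array (adjusted p of 0.09 without culture 1 and 0.0608 without culture 2) and without early SP culture 1 (0.0703). HSP30, a stress protein of the plasma membrane, had a log2 fold change of 1.08, which became 0.83 without late SP culture 1 and 0.87 without early SP culture 2, neither of them called. HSP12, a small membrane-binding stress protein, had signals of 16813.8 and 13862.6 in late SP, against 7483.8 and 9530.1 in early SP, but with a log2 fold change of 0.85 it did not reach 2-fold, though it did without early SP culture 2 (1.03).

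Of 6 chaperone genes of the mitochondrial matrix 2 were called, both as higher, where 6.74% of all genes rose. So small a group allows no comparison with that share. The genes MDJ1 (log2 fold change 1.27) and HSP78 (1.10, limma adjusted p = 0.015) rose, whereas SSC1 (0.81), HSP10 (0.54), HSP60 (0.43) and CPR3 (-0.84) were not called. ZUO1, the J-protein that works on nascent chains at the ribosome, fell with signals of 209.1 and 276.5 in late SP, against 660.8 and 527.1 in early SP (log2 fold change -1.30, adjusted p = 0.000279 from limma), and its partner SSZ1 had -0.89. In the endoplasmic reticulum the Hsp70 gene KAR2 had 4467.5 and 4212.0 in late SP, against 1486.0 and 1299.5 in early SP (log2 fold change 1.64). Of the 23 genes tested for folding and secretion there 4 others fell, a share of 17.4% that lay near that of all genes (17.2%). Among them were the exchange factor of KAR2, SIL1 (-1.67), and FPR2 (-1.89), a peptidyl-prolyl isomerase.

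**Figure D2:**
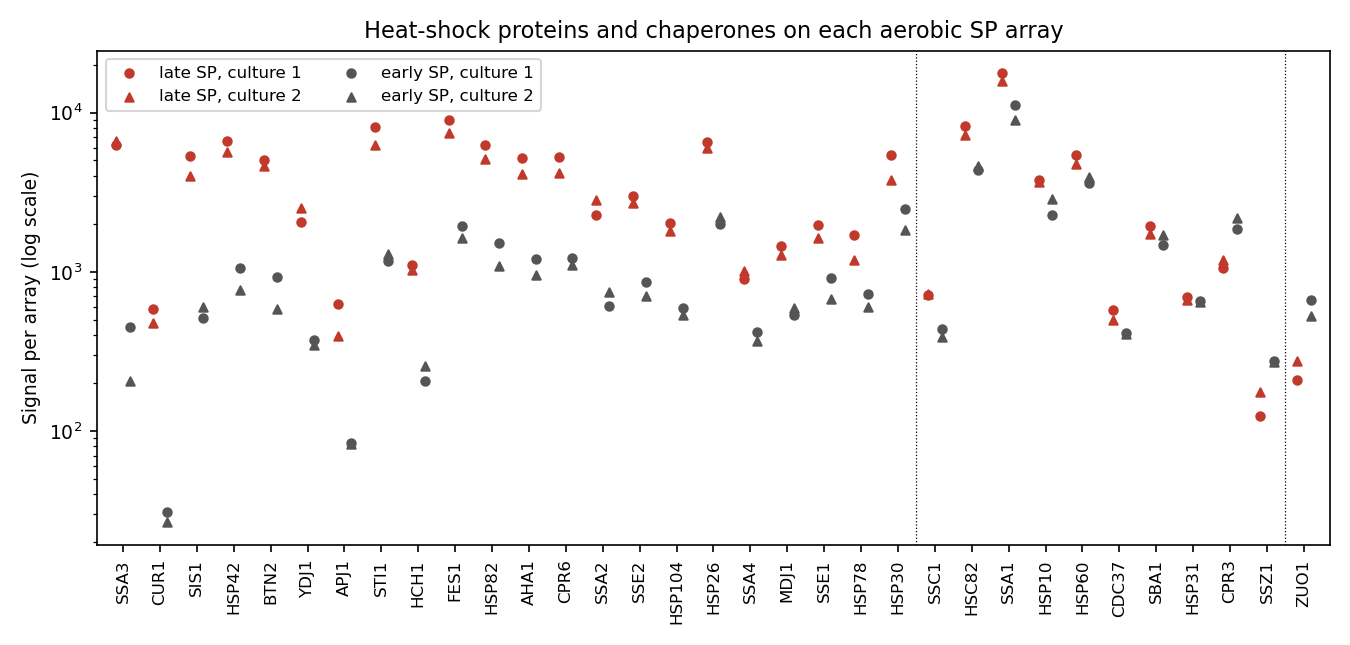
Signal on each array (log scale) of the 33 tested heat-shock protein and chaperone genes, ordered by fold change, with late SP in red left of early SP in grey and 1 symbol per culture. The dotted lines set off the 22 genes that rose, the 10 that were not called and ZUO1, which fell.

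Rises were also found among genes known from stationary phase and from the general stress response. Of 8 tested stationary-phase genes 6 rose and none fell, with a median log2 fold change of 1.60. SPG1, a gene required for survival of heat in SP, had signals of 11263.9 and 9773.1 in late SP, against 3069.1 and 3632.9 in early SP (log2 fold change 1.65 ± 0.16 SE, limma adjusted p = 2.99e-06). SPG4 had 15386.4 and 11316.6 in late SP, against 4280.7 and 4802.2 in early SP (1.54), and SPG3 had 1275.1 and 1487.6 in late SP, against 557.3 and 534.7 in early SP (1.34). Both late SP signals of SPG1 and of SPG4 were above those of all 18 other arrays. With quantile normalization SPG4 had 0.87 and was no longer called. SPG5, a regulator of proteasome assembly, had 2.23, and was not called without late SP culture 1 (adjusted p = 0.0543) or early SP culture 1 (0.06). Of 28 targets of Msn2 and Msn4, 11 rose and 1 fell (39.3% and 3.57%, against 6.74% and 17.2% of all genes), with a median of 0.80, with HSP42, HSP26 and HSP104 also on the chaperone list, SSA3 on the chaperone and stationary-phase lists and GRE1 on the stationary-phase and Msn2 and Msn4 lists. GRE1, a hydrophilin of stress responses, had a log2 fold change of 2.36, whereas DDR48, a stress protein of the cell wall, fell with signals of 1089.1 and 1067.7 in late SP, against 3591.5 and 3526.4 in early SP (-1.72).

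Of 28 tested antioxidant, thioredoxin and glutathione genes 2 rose and 6 fell, shares of 7.14% and 21.4% that lay near those of all genes (6.74% and 17.2%), with a median of 0.15, and leaving out late SP culture 1 or early SP culture 1 left 1 rise, while 4 rose without late SP culture 2. The superoxide dismutases SOD1 and SOD2 had log2 fold changes of 0.32 and -0.36 and were not called (adjusted p = 0.202 and 0.338 from limma). The glutaredoxins GRX3 and GRX4, which serve iron sensing, fell by -1.78 and -1.43 and GSH2, which makes glutathione, by -1.64, also on the log2 scale. TRX1, a cytosolic thioredoxin, had signals of 611.8 and 791.7 in late SP, against 1786.8 and 2097.4 in early SP (-1.48). Of the protein breakdown systems, 3 of 40 proteasome and ubiquitin genes and 1 of 31 autophagy genes rose and none fell, and these shares of rises, 7.5% and 3.23%, were near and below that of all genes (6.74%). The proteasome and ubiquitin count was 1 without late SP culture 1, and the autophagy count was 3 without late SP culture 2 or early SP culture 1 and 2 without early SP culture 2. The autophagy gene was ATG8, which encodes the ubiquitin-like protein of the autophagosome membrane, with signals of 3952.5 and 3604.2 in late SP, against 1073.6 and 431.0 in early SP (log2 fold change 2.47, adjusted p = 7.55e-05). RPN4, the transcription factor for proteasome genes, had 1.68.

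Of 19 tested fatty acid beta-oxidation genes, 6 rose and none fell (31.6% higher, against 6.74% of all genes, with a median log2 fold change of 0.77), with 5 to 9 rises when 1 array was left out. FAA1, which activates fatty acids, had signals of 2441.5 and 1683.0 in late SP, against 403.0 and 260.8 in early SP (log2 fold change 2.64 ± 0.33 SE, limma adjusted p = 2.27e-05). SPS19 and ECI1, auxiliary enzymes for unsaturated fatty acids, had 1.80 and 1.55 and POT1, the thiolase of the pathway, 1.33, which with quantile normalization was 0.69 and not called. CTA1, the peroxisomal catalase, had 9030.5 and 7432.2 in late SP, against 3993.5 and 4129.3 in early SP, a log2 fold change of 1.01. This change dropped under 2-fold without late SP culture 1 (0.87) or early SP culture 1 (0.99). With quantile normalization CTA1 was not called either. Of 23 peroxins in the list, PEX18, a co-receptor for matrix import, rose (2.41), while PEX21, its paralog (-1.28), and PEX17 (-1.04), part of the docking complex, fell, the call of PEX17 being lost without late SP culture 2 or early SP culture 2. The shares of peroxins that rose and fell, 4.35% and 8.7%, were below those of all genes (6.74% and 17.2%). PEX9 was not on the peroxin list.

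Calls among genes for mitochondrial functions were mainly falls. Of 16 TCA cycle genes 5 fell (31.2%, against 17.2% of all genes) and none rose, with a median log2 fold change of -0.74, and 3 fell without late SP culture 2 or early SP culture 2. IDH2, a subunit of isocitrate dehydrogenase, had signals of 1025.7 and 1454.7 in late SP, against 4710.3 and 4501.1 in early SP (log2 fold change -1.91 ± 0.25 SE, limma adjusted p = 2.9e-05), and ACO1, the aconitase, had -1.71. Of 21 respiratory chain genes 3 fell, a share of 14.3% that lay below that of all genes (17.2%), namely CYC1, cytochrome c (-1.69), and the NADH dehydrogenases NDI1 (-1.46) and NDE1 (-1.37). Of 17 ATP synthase genes 1 fell (5.88%).

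The mitochondrial ribosome had the highest share of falls of the lists examined, 57.3% against 17.2% of all genes. Of 75 tested mitochondrial ribosomal protein genes 43 fell and none rose, with a median log2 fold change of -1.11 in late against early SP, and leaving out 1 array gave 40 to 45 falls. MRPL13 had signals of 193.6 and 163.7 in late SP, against 598.7 and 749.4 in early SP (log2 fold change -1.91 ± 0.22 SE, limma adjusted p = 1.31e-05). MRPL32 had 106.8 and 146.5 in late SP, against 443.9 and 496.2 in early SP (-1.91), and MRPL11 and MRPL4 had -1.88 each. The lowest early SP signal was above the highest late SP signal for each of these 4 genes, which their call on the same arrays makes likely. Of 33 genes for protein import into mitochondria 12 fell and 1 rose (36.4% and 3.03%, against 17.2% and 6.74% of all genes). Their median was -0.88. After scaling to 6 housekeeping genes 10 of them fell, and the number of falls varied with the array left out. Among the 12 were MAS2, a subunit of the processing peptidase (-1.87), the carrier chaperone TIM9 (-1.74) and PAM18 (-1.67), a part of the import motor. Other mitochondrial genes were among the 15 largest falls: COX10, which acts in the synthesis of heme A for cytochrome oxidase, had 52.3 and 59.3 in late SP, against 452.0 and 446.3 in early SP (log2 fold change -3.01 ± 0.27 SE, limma adjusted p = 1.48e-06), MST1, the mitochondrial threonyl-tRNA synthetase, had -2.33 and COQ2, of ubiquinone synthesis, -2.32. MIX23, a protein of the intermembrane space, had 6.9 and 35.3 in late SP, against 161.4 and 110.7 in early SP (-2.70), so that its late SP cultures were far apart.

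Falls among genes for cytosolic translation depended on the culture. Of 81 cytosolic ribosomal protein genes with a probe set of their own, 28 fell (34.6%, against 17.2% of all genes) and 2 rose, with a median log2 fold change of -0.82; 57 further genes of the list were not counted, mainly because close paralogs share their probe sets. The median was -0.98 in culture 1 and -0.55 in culture 2. Without the late SP array of culture 1 only 4 genes of the list fell, and without that of culture 2 50 fell. RPS0B had signals of 221.6 and 525.8 in late SP, against 859.6 and 1431.6 in early SP (log2 fold change -1.70, and -1.08 without late SP culture 1), and RPP1B, a stalk protein, had 771.0 and 1505.0 in late SP, against 3344.4 and 3471.0 in early SP (-1.66). In both genes the late SP signal was lower in culture 1 than in culture 2. Of 19 aminoacyl-tRNA synthetase genes 10 fell and none rose (median -1.09), with 5 falls without late SP culture 1 and 13 without culture 2. DED81, the asparaginyl-tRNA synthetase, had 158.3 and 191.9 in late SP, against 934.1 and 612.7 in early SP (-2.12 ± 0.19 SE, limma adjusted p = 1.54e-06), and SES1, the seryl-tRNA synthetase, had -2.02. Of 34 translation factors 10 fell and 2 rose, with 2 falls without late SP culture 1, and among those that rose HEF3, a paralog of the fungal elongation factor eEF3, had 3585.6 and 3132.2 in late SP, against 837.0 and 718.8 in early SP (2.11). RBG1, which encodes a GTPase that binds ribosomes, was at 4.0 and 10.1 in late SP, below the floor, against 144.3 and 128.8 in early SP, and was thus at least 11.4-fold lower (adjusted p = 2.34e-08).

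Few ribosome biogenesis genes were called. Of 101 tested ribosome biogenesis genes 3 rose and 2 fell, shares below those of all genes (6.74% and 17.2%), and their median log2 fold change was 0.00. Without late SP culture 1, 6 rose and none fell, without late SP culture 2, 2 rose and 5 fell, without early SP culture 1, 1 rose and none fell, and without early SP culture 2, 6 rose and 3 fell. The same list had a median of -1.94 in early SP against the post-diauxic phase, so that its low level in late SP had been reached by early SP. Among its called members, IMP4, a protein of the small-subunit processome, had signals of 69.7 and 78.2 in late SP, against 24.0 and 32.0 in early SP (log2 fold change 1.41), and was not called without early SP culture 1 (limma adjusted p = 0.0508).

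**Figure D3:**
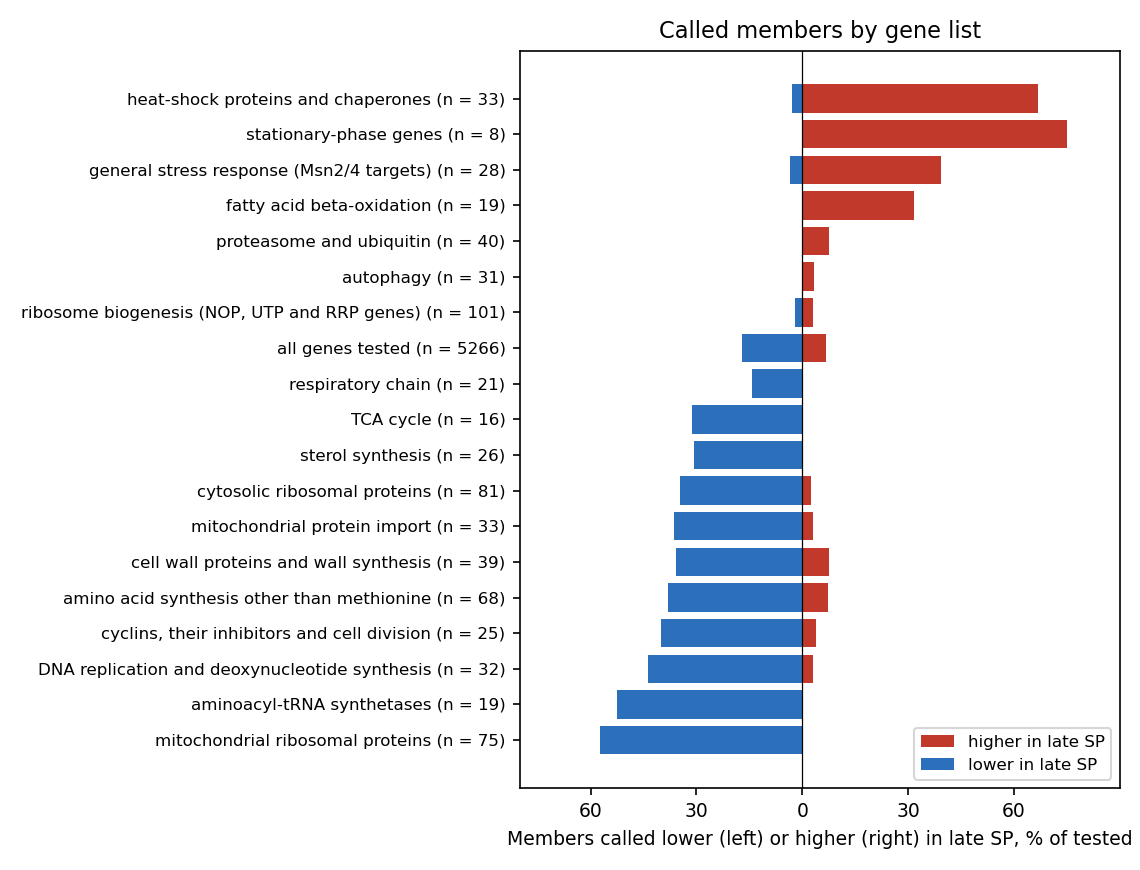
Share of the tested members of each gene list that were lower (blue, left) or higher (red, right) in late SP, in percent, with the share over all 5266 genes as background and the number of tested members behind each name. Chaperones and stationary-phase genes extend furthest to the right, with 66.7% and 75% higher, and mitochondrial ribosomal proteins furthest to the left, with 57.3% lower.

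Of 68 genes for amino acid synthesis other than methionine 26 fell (38.2%, against 17.2% of all genes), 5 rose and 37 were not called (median log2 fold change -0.89). Besides CPA1, SER3, of serine synthesis, had signals of 174.6 and 141.1 in late SP, against 22.5 and 32.8 in early SP (log2 fold change 2.53 ± 0.28 SE, limma adjusted p = 8.12e-06). ARG3, of arginine synthesis, rose by a log2 fold change of 2.30. LYS12, of lysine synthesis, had 8.8 and 125.5 in late SP, against 287.7 and 154.7 in early SP, a log2 fold change of -2.44 that was -0.75 and not called without late SP culture 1 and not called without early SP culture 1 (adjusted p = 0.0732). Of 33 methionine, cysteine and sulfate genes 10 fell (30.3%) and 2 rose, with MET6, the methionine synthase, at -2.06 and SAM1, which makes S-adenosylmethionine, at -2.04. Of 26 sterol synthesis genes 8 fell (30.8%) and none rose (5 without late SP culture 1 and 14 without culture 2), led by ERG4 (-1.82) and MVD1 (-1.80). Biotin uptake genes were among the 15 largest falls, as BIO5, a transporter for biotin precursors, had 33.4 and 32.0 in late SP, against 249.9 and 229.9 in early SP (-2.87), and VHT1, the biotin transporter, had -2.45.

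Nitrogen genes went both ways. Of 27 genes under nitrogen catabolite repression 7 fell (25.9%) and 4 rose (14.8%), and of 24 amino acid permeases 4 fell and 4 rose (16.7% each). Of all genes 17.2% fell and 6.74% rose, so that the share of permeases that fell was near that of all genes. DAL3, an enzyme of allantoin breakdown, had signals of 231.3 and 217.4 in late SP, against 1639.5 and 1598.2 in early SP (log2 fold change -2.85 ± 0.24 SE, limma adjusted p = 8.3e-07), and MEP2, the high-affinity ammonium permease and sensor, had 522.0 and 731.7 in late SP, against 3193.0 and 3117.4 in early SP (-2.35). PUT1, the first enzyme of proline breakdown, and CAR1, the arginase, rose instead by 1.97 and 1.93. AGP1, a broad-range amino acid permease, had 624.6 and 530.4 in late SP, against 83.0 and 62.2 in early SP (8.01-fold higher, limma adjusted p = 5.01e-08), and GNP1, a glutamine permease, had a log2 fold change of 2.49. The early SP level of DAL3 was the highest of the 6 aerobic time points, while AGP1 and CAR1 were higher in late than in early SP in both cultures.

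Of 25 genes for cyclins, their inhibitors and cell division 10 fell (40%, against 17.2% of all genes), 1 rose and 14 were not called. CLN1, a G1 cyclin, had signals of 41.8 and 61.4 in late SP, against 316.0 and 249.7 in early SP (log2 fold change -2.47 ± 0.24 SE, limma adjusted p = 2.52e-06), and CLN3, the G1 cyclin that starts the cycle, had 45.3 and 56.7 in late SP, against 219.9 and 198.7 in early SP (-2.04). Both cyclins were thus lower in each late SP culture, which their call on the same arrays makes likely. Of 32 DNA replication genes 14 fell (43.8%) and 1 rose (median -0.92), with MCM7 of the replicative helicase at -1.86 and the DNA ligase gene CDC9 at -1.84. Of 39 cell wall genes 14 fell (35.9%) and 3 rose, among those that fell GAS1, a glucan-remodelling enzyme (738.4 and 1140.6 in late SP, against 3550.7 and 3522.7 in early SP, log2 fold change -1.95), while RLM1, the transcription factor of the cell integrity pathway, had 2.00. Of the 7 markers of MATa cells 4 fell, led by BAR1, the protease that degrades alpha factor (-1.82), with 1 fall without late SP culture 1 and 7 without late SP culture 2.

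The lists that follow stand beside 6.74% of all genes that rose and 17.2% that fell. Of 8 heme synthesis genes 3 fell (37.5%), and of 33 iron and copper genes 5 rose (15.2%) and 4 fell (12.1%). Of 16 tested genes of meiosis and sporulation 2 rose (12.5%) and 4 fell (25%). Of 15 genes of the glyoxylate cycle and gluconeogenesis 1 rose, the transcription factor SIP4 (1.70), and 1 fell, PYC2 (-1.05), whose call was lost without culture 1 of either group. The shares of the glyoxylate and gluconeogenesis genes that rose and fell, 6.67% each, were near and below those of all genes. Of 14 genes for growth on ethanol and other non-fermentable carbon sources 1 fell (7.14%), the glycerol importer STL1 (-2.12). Of 29 mRNA decay genes 6 fell (3 without late SP culture 1) and 2 rose. The genes that rose were EDC2, an activator of decapping, with signals of 1849.2 and 1530.4 in late SP, against 197.6 and 250.9 in early SP (log2 fold change 2.92, adjusted p = 4.16e-06 from limma), and its paralog EDC1, with 41.7 and 44.0 in late SP, against 1.4 and 2.4 in early SP, both below the floor, and so at least 3.57-fold higher. The shares of mRNA decay genes that fell and rose, 20.7% and 6.9%, were near those of all genes. Of the 6 housekeeping genes that the methods name, none was called, with log2 fold changes between -0.76 for ALG9 and 0.29 for UBC6.

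Over the whole aerobic course, many of the late SP levels were the extremes of the series. For 233 of the 355 genes that rose (65.6%), both late SP signals were higher than on all 18 other arrays, including the anaerobic ones, whereas this was so for 11.4% of all genes. For 340 of the 907 genes that fell (37.5%) both were lower than on all 18 other arrays, against 11.5% of all genes. The comparison itself used the late SP arrays and 2 of these 18 arrays. Shares above those of all genes thus follow in part from the call and are no separate support. SSA3 had signals of 33.1 and 29.5 in exponential growth, 539.6 and 512.7 at the diauxic shift, 163.9 and 94.0 in the post-diauxic phase, 452.3 and 205.0 in early SP and 6252.6 and 6639.8 in late SP. ARO10 had 5.1 and 1.2 in exponential growth, 28.1 and 34.0 at the diauxic shift, 157.3 and 96.1 in the post-diauxic phase, 600.8 and 547.4 in early SP and 6467.0 and 6366.8 in late SP. SSA3 thus had a first maximum at the diauxic shift, while ARO10 was higher at each time point from the diauxic shift on. YDJ1 differed from both, with 2459.9 and 3166.8 in exponential growth, 370.7 and 348.8 in early SP and 2040.5 and 2517.8 in late SP, so that its late SP level lay near that of growing cells. Chaperone genes as a list had a median log2 difference from exponential growth of 0.52 at the diauxic shift, 0.13 in the post-diauxic phase, 0.27 in early SP and 2.13 in late SP, and mitochondrial ribosomal protein genes of 0.69, 0.72, 0.60 and -0.55 at the same time points.

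**Figure D4:**
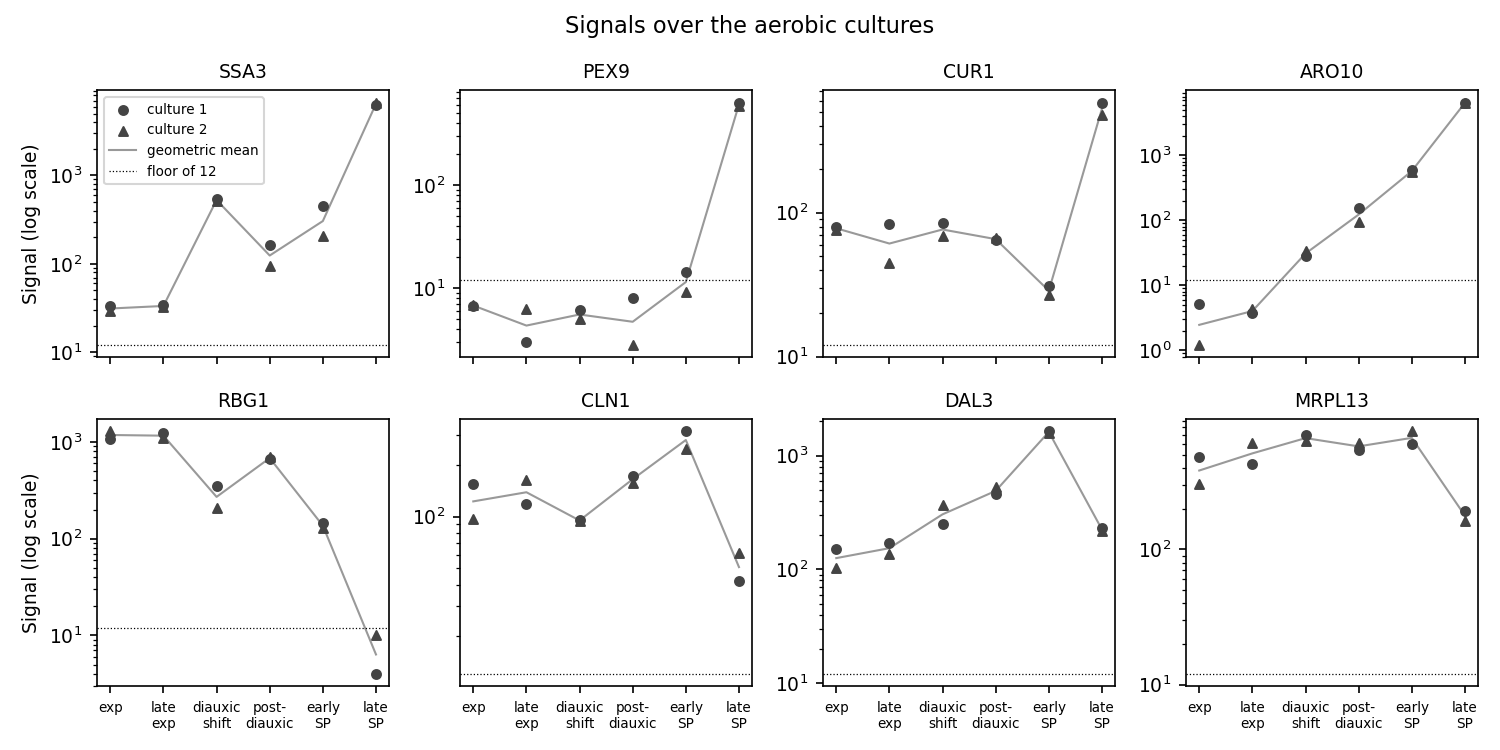
Signals (log scale) of 8 genes at the 6 aerobic time points, 1 symbol per culture and array, with the geometric mean as a line and the floor of 12 dotted. PEX9 stays at or below 14.5 until late SP and CUR1 dips to 30.9 and 26.7 in early SP before its late SP maximum, whereas DAL3 and CLN1 are highest in early SP and drop to 231.3 and 217.4 and to 41.8 and 61.4 in late SP.

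The change between 2 earlier aerobic time points was set beside these results, as it shares no array with them, though it shares the cultures. In the post-diauxic phase against the diauxic shift, 358 genes were higher (6.8%) and 194 lower (3.68%). These counts depended on diauxic shift culture 1, without which fewer probe sets were called in both directions. The overlaps that follow were not counted again without that array. Of the 355 genes that rose in late SP, 61 (17.2%) had been lower in the post-diauxic phase than at the diauxic shift, which is 31.4% of those lower there, and 18 (5.07%) had been higher, which is 5.03% of those higher there. Of the 907 genes that fell in late SP, 102 (11.2%) had been higher in the post-diauxic phase, which is 28.5% of those higher there, and 10 (1.1%) had been lower, which is 5.15% of those lower there. Cytosolic ribosomal protein genes had medians of 1.20 in the post-diauxic phase against the diauxic shift and -0.82 in late against early SP, and Msn2 and Msn4 targets had -1.37 and 0.80.

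The step from early to late SP was small in the anaerobic cultures, though it may have differed in length from the aerobic one. In anaerobic late against early SP 1 gene was higher, ZPR1 (log2 fold change 1.66), and 19 were lower, with a median log2 fold change of -0.12 over all genes. The difference between the aerobic and the anaerobic change was tested itself: it was positive for 399 genes (7.58%) and negative for 630 (12%), at an adjusted p below 0.05 (limma) and at least 2-fold. Without aerobic late SP culture 1 the negative count was 433 probe sets in place of 682. Of these genes, 274 had also risen and 553 had also fallen in aerobic late SP, which follows in part from the shared aerobic arrays. The difference was 4.38 for CUR1 (limma adjusted p = 3.98e-06) and 3.57 for SSA3 (0.000774). For CUR1 the aerobic change was 4.20 and the anaerobic one -0.19. HSP26 and SSA4 rose in aerobic late SP, but their difference from the anaerobic change (1.36 and 0.74) did not pass (adjusted p = 0.155 and 0.221). Of the chaperone list 17 of 33 genes had a positive and 2 a negative difference, and of the mitochondrial ribosomal protein genes 38 of 75 had a negative one. For its comparison of SP cultures the paper used aerobic time point 6 and anaerobic time point 4. By their order these are the late SP arrays. The paper places its SP samples 4 h past the exhaustion of external carbon, so that late SP here is not a long starvation in either condition. The labels do not give the time between early and late SP sampling. Oxygen, the medium supplements and the sampling times cannot be told apart.

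Array features other than those of protein-coding genes were, as a group, higher in late SP. When all 7475 features above the low-signal filter were tested together, 932 were higher (12.5%) and 1030 lower (13.8%). Of the 76 tested tRNA features 45 were higher and none lower, with a median log2 fold change of 1.28, and of the 41 tested snoRNA features 20 were higher and none lower (1.02). Of 1261 features that the annotation does not list, 373 were higher and 39 lower (median 0.55), while the median of the protein-coding features was -0.22. The median signal of the features not listed was 15.5 and 14.3 in late SP and 8.8 and 8.6 in early SP, and between 5.5 and 7.9 on the other 16 arrays. The share of them below the floor was 42.2% and 44.7% in late SP and 57.8% and 58.3% in early SP. As signals were scaled to a common average, a rise of these features and a fall of the protein-coding ones cannot be told apart by their medians.

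Single features of this kind had clear changes. SNR14, the U4 RNA of the spliceosome, had signals of 175.5 and 119.2 in late SP, against 17.7 and 23.2 in early SP (log2 fold change 2.84 ± 0.34 SE, limma adjusted p = 1.97e-05). SNR71, a small nucleolar RNA, had 353.6 and 264.4 in late SP, against 42.7 and 63.0 in early SP (2.56). The feature of RPR1, the RNA of RNase P, had 595.6 and 539.2 in late SP, against 130.4 and 135.9 in early SP (2.09). The late SP signals of these features did not overlap the early SP ones, which picking them by their values on these arrays makes likely. The share of all features that separate in this way was not counted. The methods give an isolation of mRNA before labelling, and these RNAs are not messengers, so that their signals are no measure of their abundance in the cell. These features were picked out after their values were seen.

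**Figure D5:**
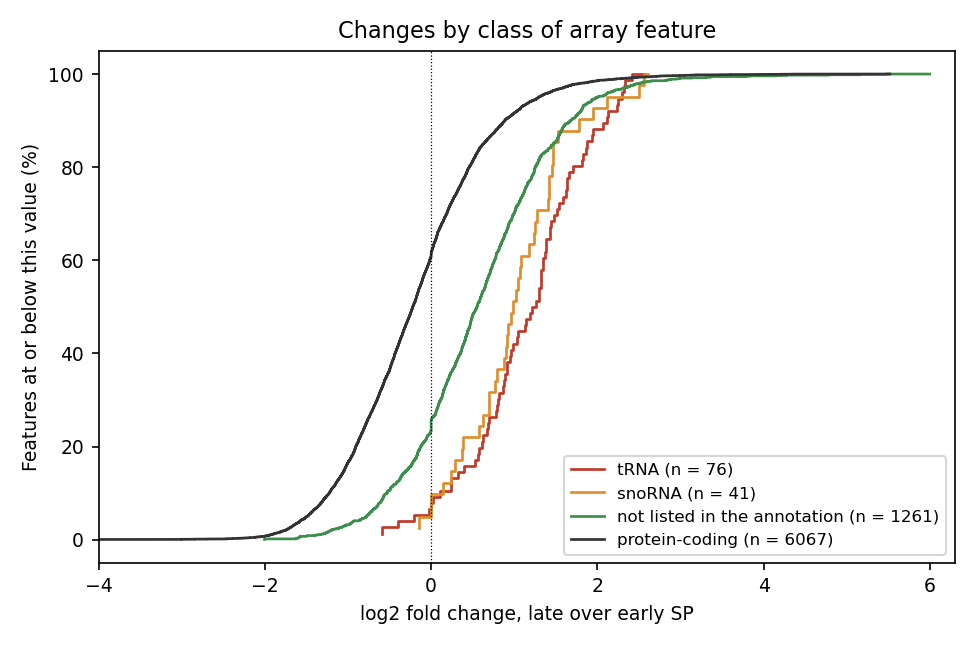
Cumulative share of features (percent) at or below each log2 fold change of late over early SP, for tRNA, snoRNA, features not listed in the annotation and protein-coding features that passed the low-signal filter. The protein-coding curve crosses its midpoint at -0.22 and the others at 0.55 (not listed), 1.02 (snoRNA) and 1.28 (tRNA).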

How the data were processed

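Signal intensity per feature, scaled by the authors to a common target over all gene features of an array, was taken from the deposited value table of all 20 arrays; the methods give isolation of mRNA and labelling for Affymetrix YG-S98 arrays. Signals below 12 were set to 12 and log2 was taken. Features of protein-coding genes with a highest signal of at least 20 were kept (6067 probe sets of 5266 genes; 580 were left out). Names came from the platform's probe annotation and RefSeq genes of the R64 assembly, probe sets of several genes were not named, and for a gene with several probe sets the one with the highest mean signal was used; 80 of 261 such genes had probe sets with different calls, opposite only in RPL7A. limma 3.58.1 in R 4.3.3 was fitted with 10 group means over all 20 arrays, which gave 10 residual degrees of freedom; calls needed a Benjamini-Hochberg adjusted p below 0.05 and 2-fold. With 2 cultures per group the number of arrays limits the precision. On simulated data, 94% of changes of 1.5 and 99% of changes of 2.5 (log2) were recovered. Only probe sets well above the floor in early SP were changed there, with independent noise and no difference between cultures. The recovery thus does not cover genes of low signal. Same-numbered arrays come from the same culture by their labels; their deviations from the group means correlated at 0.17 in late and early SP.

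The genes named were the 15 largest changes per direction, the 4 largest called members of each list described (2 where none was called), genes the study names and the 10 largest differences between oxygen conditions; others are marked where they occur or belong to the chaperone family. The comparison, the gene lists and the features were chosen with earlier results of these data known. Promoter motifs, listed in the design, were not analysed here. Alternatives changed the floor, filter, scaling, samples, block, fold threshold and the arrays left out.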

Additional observations from a re-analysis of the deposited data

Results flagged for a closer look

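The change from early to late SP differed between the aerobic and the anaerobic cultures by the test of the difference itself (limma) for 399 genes with a positive and 630 with a negative difference. The labels do not give the length of this step in either condition. The 10 genes with the largest difference, all positive, were PEX9 (log2 difference 5.52), CUR1 (4.38), NKP1 (4.27), RTS3 (3.95), REC104 (3.93), ROQ1 (3.91), HRP1 (3.91), ARO10 (3.61), NRD1 (3.58) and SSA3 (3.57). In anaerobic late against early SP these genes had log2 fold changes between -0.39 for NRD1 and 0.83 for SSA3. The anaerobic SP signals of PEX9, NKP1 and REC104 were all below the floor of 12, so that their differences were set by the floor and their place in this order is not fixed.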

How the results depend on the processing

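Counts here are of probe sets, with 486 higher and 994 lower in aerobic late against early SP. Without the fold threshold 898 were higher and 1950 lower, and with all features tested 932 were higher. Leaving out 1 array gave 407 to 521 higher and 796 to 1148 lower, the fewest without late SP culture 1, when 71.4% of the calls were kept; the lone array is then assumed to vary like the other groups. With the culture as a replicate block the counts were 484 and 990, and 99.5% of the calls were kept, so that the block changed few calls. For the difference between aerobic and anaerobic changes (490 positive, 682 negative) the positive count was 812 with all features; leaving out 1 array gave 376 to 537 positive and 433 to 803 negative, and the block 487 and 672. For the post-diauxic phase against the diauxic shift (450 higher, 215 lower) the counts were 840 and 504 without the fold threshold and 231 to 495 and 120 to 237 without 1 array, the fewest without diauxic shift culture 1; the block gave 447 and 209. For features other than those of protein-coding genes (447 higher, 39 lower) the counts were 278 and 24 with a floor of 30, 248 and 23 with a highest signal of at least 100, 687 and 102 without the fold threshold, and 374 to 467 and 25 to 50 without 1 array; with only the 4 arrays compared 24 were lower, and the block gave 443 and 39. The cause of these changes was not tested. Of 186 called named genes 130 kept their call under all 17 alternatives and none changed sign. The alternatives for the last 2 comparisons and the anaerobic arrays left out were chosen after seeing the data.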

Other observations

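Large rises were also found in features that the annotation used here does not list. Feature 9829_at had signals of 2666.4 and 2857.9 in late SP, against 45.2 and 41.2 in early SP (log2 fold change 6.0 ± 0.29 SE, limma adjusted p = 6.24e-09 over all features). Feature 9830_at had 874.8 and 822.6 in late SP, against 19.9 and 18.4 in early SP (5.47), and 9828_at had 2827.3 and 2440.4 in late SP, against 59.6 and 89.7 in early SP (5.17). These features were picked out after their values were seen, and no gene name is given for them here. CRS5, which the annotation lists as a pseudogene and which is known as a copper-binding metallothionein gene, had 7345.7 and 5573.9 in late SP, against 891.5 and 1056.2 in early SP (2.72).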
